A study of Mus musculus with 8 samples.

Results

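The B cell identity and receptor signalling genes are 39 genes chosen by name: the parts of the B cell receptor, the kinases and adaptors behind it, surface proteins of B cells, and the transcription factors that hold the lineage. A probe set of the array counted for a gene when the platform annotation gives it that gene's symbol alone. By this rule 37 of the 39 genes had 81 of the 45101 probe sets, and Lyn and Cd38 were not listed in the annotation used here. The genes were measured in whole blood of female C57BL/6J mice aged 6-8 weeks at purchase, 1 Affymetrix mouse genome array per mouse. On Day 7, blood was taken from 4 mice under restraint stress (RST, 6 h of daily confinement in a ventilated tube) and from 4 control mice. Food and water were withheld from the unrestrained controls for as long as the tubes were in use, so no group here had free access to both. Values are log2 expression levels, so a difference of 1 is a factor of 2. The comparison asks at what level B cell RNA stood in blood after RST. In whole blood, fewer B cells, less RNA per B cell and a larger share of RNA from other blood cells cannot be told apart.

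B cells carry an antibody on their surface. Its mu heavy chain, encoded by Ighm, sits in the membrane with CD79A and CD79B, whose tails are phosphorylated by the kinases LYN, BLK and SYK when antigen binds. The adaptor BLNK then brings BTK to PLCG2, and coreceptors such as CD22, CD72 and FCGR2B damp the signal. The lineage is set up in bone marrow by EBF1 and PAX5, and SPIB, POU2F2 and its coactivator POU2AF1 also act in B cells. B cells are a main lymphocyte class of mouse blood, and lymphocytes are known to be sensitive to glucocorticoids.

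Of 36 genes with a probe set bright enough to be tested, all 36 were lower on average in the RST group, or 35 after quantile normalization, which put Pik3ap1 above 0. In all, 67.6% of the 11766 genes tested had a lower mean. The median difference of the 36 genes (RST minus control, log2) was −0.98, against −0.24 over all genes tested. None of the 36 passed an adjusted p under 0.05 in limma. Over all genes tested that share was also 0%. Adjusted p-values of the 36 ran from 0.32 to 0.95, and 0.32 was also the smallest of all genes. With a fold above 1.5 and a p under 0.05 before adjustment, 27 of the 36 genes (75%) were lower, while this held for 12.8% of all genes tested. The 4 RST mice were all below the 4 control mice for 16 of the 36 genes (44.4%), which held for 6.57% of all genes tested. In an exact permutation test of 4 mice against 4, groups without overlap always give a two-sided p of 0.029, the smallest this design allows. That p follows from how the 16 genes were picked and adds nothing to the count. The count at the unadjusted threshold was smaller without control mice 1 and 2, where fewer mice were compared, and the cause of the fall was not tested. Without both, 4 genes were lower at the unadjusted threshold (2.32% of all genes tested), and the median was −0.60 against −0.14 over all genes.

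**Figure D1:**
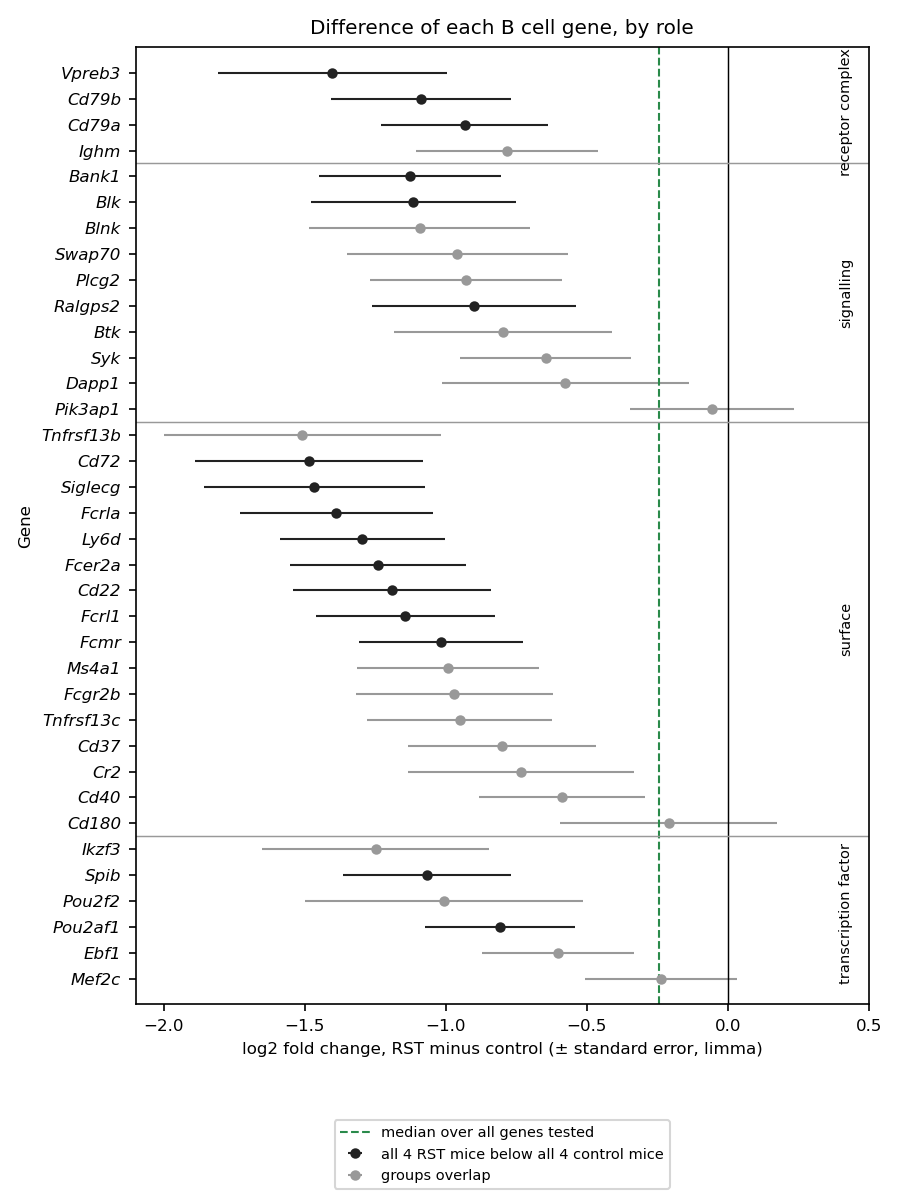
Difference of each of 36 B cell genes between 4 RST and 4 control mice (x axis, log2, RST minus control, with the standard error from limma), by role. Black points are genes whose groups do not overlap, grey points overlap, and the dashed line is the median of all genes tested (−0.24). All points lie below 0, and after quantile normalization Pik3ap1 did not.

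The start regions of 6 members are printed here, 5′ to 3′, to show the letters that factors of the B lineage are known to read. The windows come from RefSeq (GRCm38.p6), which had one for 31 of the 39 genes, and each runs from 150 bases before to 50 after the annotated start. Capitals mark the octamer ATGCAAAT, read by POU2F2 with POU2AF1, the EBF core CCCNNGGG and the ETS core GAGGAA, the kind of motif that SPIB reads. Each was searched on both strands. The whole windows of 300 bases were searched for the shares given below. Cd79a is shown as the receptor chain, Vpreb3 and Blnk as the members with an octamer, and Spib, Bank1 and Cd22 as those with an EBF core.
Cd79a (chr7:24897347-24897546, plus strand): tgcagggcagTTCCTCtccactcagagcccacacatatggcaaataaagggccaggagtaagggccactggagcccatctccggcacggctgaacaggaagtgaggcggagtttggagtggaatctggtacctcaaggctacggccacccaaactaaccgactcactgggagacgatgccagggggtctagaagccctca
Vpreb3 (chr10:75948150-75948349, plus strand): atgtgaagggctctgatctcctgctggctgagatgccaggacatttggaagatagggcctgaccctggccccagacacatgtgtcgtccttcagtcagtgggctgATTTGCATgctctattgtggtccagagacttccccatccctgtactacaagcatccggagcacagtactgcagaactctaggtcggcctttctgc
Blnk (chr19:40994172-40994371, minus strand): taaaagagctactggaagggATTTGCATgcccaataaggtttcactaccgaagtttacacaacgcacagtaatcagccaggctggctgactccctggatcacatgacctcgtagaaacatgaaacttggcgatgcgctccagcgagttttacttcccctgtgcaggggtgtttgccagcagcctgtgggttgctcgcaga
Spib (chr7:44532022-44532221, minus strand): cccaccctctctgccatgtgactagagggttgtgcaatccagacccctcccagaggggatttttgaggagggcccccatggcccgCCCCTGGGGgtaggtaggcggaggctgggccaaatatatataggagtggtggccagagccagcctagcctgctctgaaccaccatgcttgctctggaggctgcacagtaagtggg
Bank1 (chr3:136326017-136326216, minus strand): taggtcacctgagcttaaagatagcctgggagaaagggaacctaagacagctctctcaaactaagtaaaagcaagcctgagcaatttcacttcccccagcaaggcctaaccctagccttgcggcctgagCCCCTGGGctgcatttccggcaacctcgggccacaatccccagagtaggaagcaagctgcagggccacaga
Cd22 (chr7:30878979-30879178, minus strand): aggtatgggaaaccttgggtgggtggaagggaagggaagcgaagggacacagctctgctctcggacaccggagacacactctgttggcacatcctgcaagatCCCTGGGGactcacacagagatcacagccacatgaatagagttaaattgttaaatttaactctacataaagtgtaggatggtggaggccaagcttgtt
The octamer stood in the windows of 2 of 31 member genes (6.45%) and of 1.97% of all genes with a window. Its first base stood at −45 from the start in Vpreb3 and at −130 in Blnk, in both as the reverse complement. The EBF core was present for 3 member genes (9.68%) and for 15.4% of all genes, and in Spib 2 copies overlapped by all but 1 base. The ETS core was present for 15 member genes (48.4%) and for 31.3% of all genes. These are matches of letters, and no binding was measured.

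The 4 genes grouped with the receptor, Vpreb3 of developing B cells among them, had a median of −1.01. All were lower at the unadjusted threshold (100%, against 12.8% of all genes tested), and 3 had groups apart (75%, against 6.57%). Cd79a, the first signalling chain, was at 9.66, 9.89, 9.06 and 8.78 in control mice 1 to 4 and at 8.37, 8.59, 8.34 and 8.36 in RST mice 1 to 4. The groups did not overlap, and the RST mice lay within a narrow range below the lowest control mouse. Its difference was −0.93 (standard error 0.30), so that RST mice had 52.4% of the control level. The partner chain Cd79b was at 10.62, 10.56, 9.78 and 9.51 in control and 8.90, 9.26, 8.68 and 9.29 in RST mice. Again the groups were apart, with a difference of −1.09 (standard error 0.32). Cd79b was the brightest of all the member probe sets, though levels of different probe sets are not comparable as amounts of RNA.
Vpreb3, which encodes a protein of the endoplasmic reticulum that binds the mu chain in developing B cells, was at 7.02, 6.58, 6.22 and 6.24 in control mice. In RST mice it was at 5.37, 6.20, 4.67 and 4.22. The groups were apart by little, with RST mouse 2 just under control mouse 3 while RST mice 3 and 4 were far lower, and the difference was −1.40 (standard error 0.41).
Ighm had 11 probe sets, of which 5 passed the filter, 3 of them on dim signals. The brightest was at 8.82, 9.04, 8.18 and 7.74 in control and 7.39, 7.67, 7.60 and 7.99 in RST mice, a difference of −0.78 (standard error 0.32). Here the groups overlapped, since RST mouse 4 was above control mouse 4. The second brightest was at 8.22, 7.96, 7.71 and 7.43 in control and 6.91, 7.04, 6.89 and 7.19 in RST mice and did not overlap, with a difference of −0.82. The 3 dimmer probe sets past the filter lay between 2.68 and 4.96 in all mice, with differences of 0.43, 0.46 and −0.36. The first 2 of these are the member probe sets past the filter with a higher mean in RST mice. Probe sets of antibody genes can catch several related segments, and which part of the transcript each of these reads was not checked, so the values of Ighm are uncertain.

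**Figure D2:**
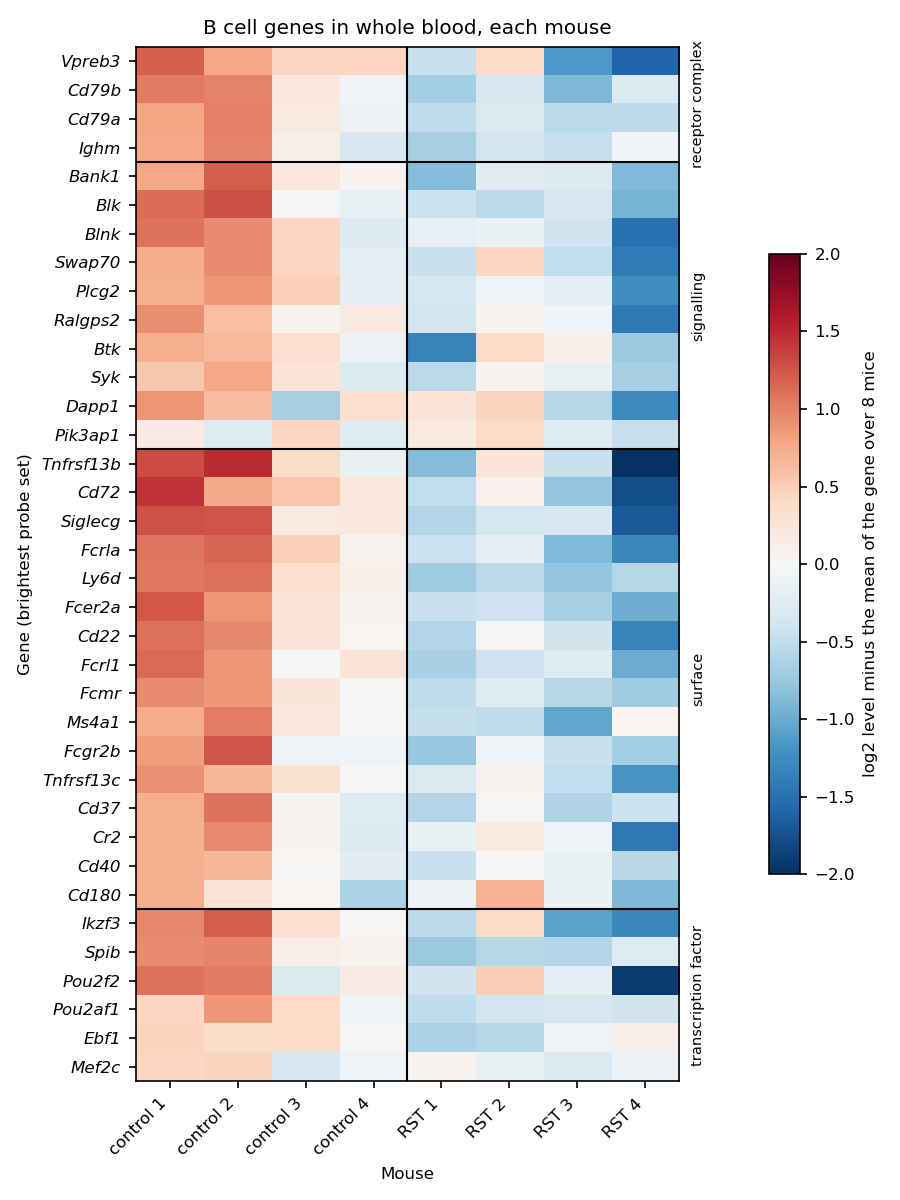
Level of each of 36 B cell genes in each mouse (columns) relative to the mean of the gene over the 8 mice (log2 color scale), with genes ordered by role. Control mice 1 and 2 are the reddest columns, with the highest value of 35 of the 36 genes between them, and RST mouse 4 holds the lowest value of 24. Over all genes tested, control mice 1 and 2 were highest for 22% and 26%, and RST mouse 4 was lowest for 46.8%.

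Among the signalling genes, 10 of 11 were measured and all 10 had a lower mean (9 of 10 after quantile normalization). Their median was −0.91. Of these, 6 were lower at the unadjusted threshold (60%, against 12.8% of all genes tested) and 3 had groups apart (30%, against 6.57%). Bank1, a scaffold that links the receptor to calcium release, was at 8.20, 8.64, 7.65 and 7.49 in control and 6.56, 7.21, 7.16 and 6.54 in RST mice. Each RST mouse was below each control mouse (difference −1.13, standard error 0.32). The Src family kinase gene Blk was at 8.12, 8.30, 6.99 and 6.87 in control and 6.58, 6.48, 6.68 and 6.08 in RST mice. Control mice 1 and 2 stood more than 1 log2 unit above control mice 3 and 4, which were themselves above every RST mouse. The difference of Blk was −1.11 (standard error 0.36).
Blnk, the adaptor between SYK and PLCG2, was at 7.36, 7.22, 6.69 and 6.00 in control mice and at 6.11, 6.13, 5.87 and 4.78 in RST mice. RST mice 1 and 2 were above control mouse 4, so the groups overlapped despite a difference of −1.09 (standard error 0.39). The other signalling genes had lower means too, with smaller differences. Plcg2, the phospholipase, differed by −0.93, Btk, the kinase that activates it, by −0.80, and Syk by −0.65. Swap70, a phosphoinositide-binding protein of B cells, differed by −0.96, and Ralgps2, a Ras-family exchange factor, by −0.90 with groups apart. The adaptor Dapp1 differed by −0.58. Pik3ap1, an adaptor for PI3 kinase, differed by −0.05 (standard error 0.29), and its brightest probe set was dim, at 4.00 ± 0.33 (SD, n = 4) in control mice.

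All 16 measured genes grouped as surface genes, with Fcrla among them though kept inside the cell, were lower on average (median −1.08). Of these, 13 passed the unadjusted threshold (81.2%, against 12.8% of all genes tested) and 8 had groups apart (50%, against 6.57%). Ly6d, a marker of the B cell lineage, was at 9.82, 9.86, 9.08 and 8.86 in control and 8.05, 8.21, 7.99 and 8.19 in RST mice. The 4 RST mice lay close together, well below control mouse 4, and the difference of −1.30 (standard error 0.29) left 40.7% of the control level. Fcrla, an Fc receptor-like protein kept inside B cells, was at 8.40, 8.50, 7.82 and 7.41 in control and 6.91, 7.16, 6.45 and 6.05 in RST mice, a difference of −1.39 (standard error 0.34). Its 3 probe sets all had groups apart, with differences of −1.39, −1.39 and −1.36. Fcer2a, which encodes the low-affinity IgE receptor CD23 of mature follicular B cells, was at 6.63, 6.26, 5.67 and 5.45 in control mice. The RST values of 4.94, 4.98, 4.73 and 4.41 were all lower, by −1.24 on average (standard error 0.31).
The members that encode inhibitory receptors were all lower at the unadjusted threshold. Cd72 differed by −1.48 (standard error 0.41), Siglecg, a sialic acid-binding inhibitor, by −1.47 (standard error 0.39), and Cd22 by −1.19 (standard error 0.35), all with groups apart. Fcgr2b, the inhibitory Fc receptor, differed by −0.97 and overlapped. Among the receptors for the survival factors BAFF and APRIL, Tnfrsf13b (TACI) had the largest difference of all members, −1.51 (standard error 0.49), yet overlapped, because RST mouse 2 at 6.42 was above control mouse 4 at 6.03. Tnfrsf13c, the BAFF receptor, differed by −0.95.
Fcrl1, another Fc receptor-like protein, and Fcmr, the receptor for IgM, were apart, at −1.14 and −1.02. Ms4a1, which encodes CD20, differed by −0.99 at its brightest probe set, where RST mouse 4 at 9.09 was above control mouse 4 at 9.06, and by −1.06 at its second, where the groups were apart. The complement receptor gene Cr2 (−0.73), the tetraspanin Cd37 (−0.80) and the costimulatory receptor Cd40 (−0.59) overlapped. Cd180, a Toll-like receptor relative, had a difference of −0.21 (standard error 0.39) at a dim probe set.

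Of 7 transcription factor genes, 6 were tested, and all 6 had a lower mean (median −0.91). Of these, 4 were lower at the unadjusted threshold (66.7%, against 12.8% of all genes tested) and 2 had groups apart (33.3%, against 6.57%). Spib, an ETS factor of B cells and plasmacytoid dendritic cells, was at 9.64, 9.68, 8.83 and 8.77 in control and 7.96, 8.14, 8.12 and 8.45 in RST mice. The groups were apart, with RST mouse 4 nearest to the control mice, and the difference was −1.07 (standard error 0.30). Pou2af1, the B cell coactivator of octamer factors, was at 9.42, 9.86, 9.37 and 8.90 in control and 8.47, 8.61, 8.65 and 8.59 in RST mice. All RST mice lay close together below control mouse 4, with a difference of −0.81 (standard error 0.27). Ikzf3, which encodes Aiolos, was at 7.16, 7.41, 6.55 and 6.21 in control mice and 5.69, 6.59, 5.14 and 4.92 in RST mice. RST mouse 2 overlapped the control mice, and the difference was −1.25 (standard error 0.40).
Ebf1, the factor that specifies the lineage, had 5 probe sets. The brightest was at 8.45, 8.38, 8.40 and 7.99 in control and 7.36, 7.43, 7.91 and 8.10 in RST mice, where RST mouse 4 passed control mouse 4 (difference −0.60, standard error 0.27). Its other 3 probe sets past the filter differed by −0.83, −0.98 and −1.11, and only the last of these had groups apart. The fifth, below the filter at 2.24 to 2.68, differed by 0.08. Pou2f2, the octamer factor itself, differed by −1.01 (standard error 0.49). Mef2c, which is also expressed in other blood cells, was at 9.15, 9.18, 8.40 and 8.65 in control and 8.78, 8.58, 8.46 and 8.63 in RST mice at its brightest probe set and differed by −0.24 (standard error 0.27). The other 4 Mef2c probe sets differed by −0.55, −0.31, −0.85 and −0.85. At the brightest one the groups overlapped, and of the others the first and the last listed had groups apart.
Pax5, the factor that commits cells to the B lineage, could not be judged. Both of its probe sets stayed below the filter, at 1.67 to 2.84 in every mouse, with differences of −0.03 and 0.17. The defining markers Cd79a, Cd79b, Ms4a1, Cd22, Ly6d and Fcrla were above the filter in both groups.

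Grouped by maturation, all 3 groups had a median below that of all genes tested. The 13 tested genes that are switched on in pro-B or pre-B cells and largely stay on (Cd79a, Vpreb3, Blnk and others) had a median of −1.09. Of these, 10 had groups apart (76.9%, against 6.57% of all genes tested). The 11 genes of transitional and mature cells, such as Fcer2a, Cr2 and Tnfrsf13c, had a median of −1.13, with 6 apart (54.5%). The 12 genes that other blood cells also use, such as Syk, Btk, Plcg2 and Mef2c, had a median of −0.80, and 0 of the 12 had groups apart. The stages were assigned broadly from textbook knowledge, and a difference between them was not tested. Genes of the first group largely stay on in mature cells, so the grouping cannot show at which stage cells differed. After quantile normalization the 3 medians were −0.92, −0.92 and −0.54, and without control mice 1 and 2 they were −0.62, −0.70 and −0.36.

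**Figure D3:**
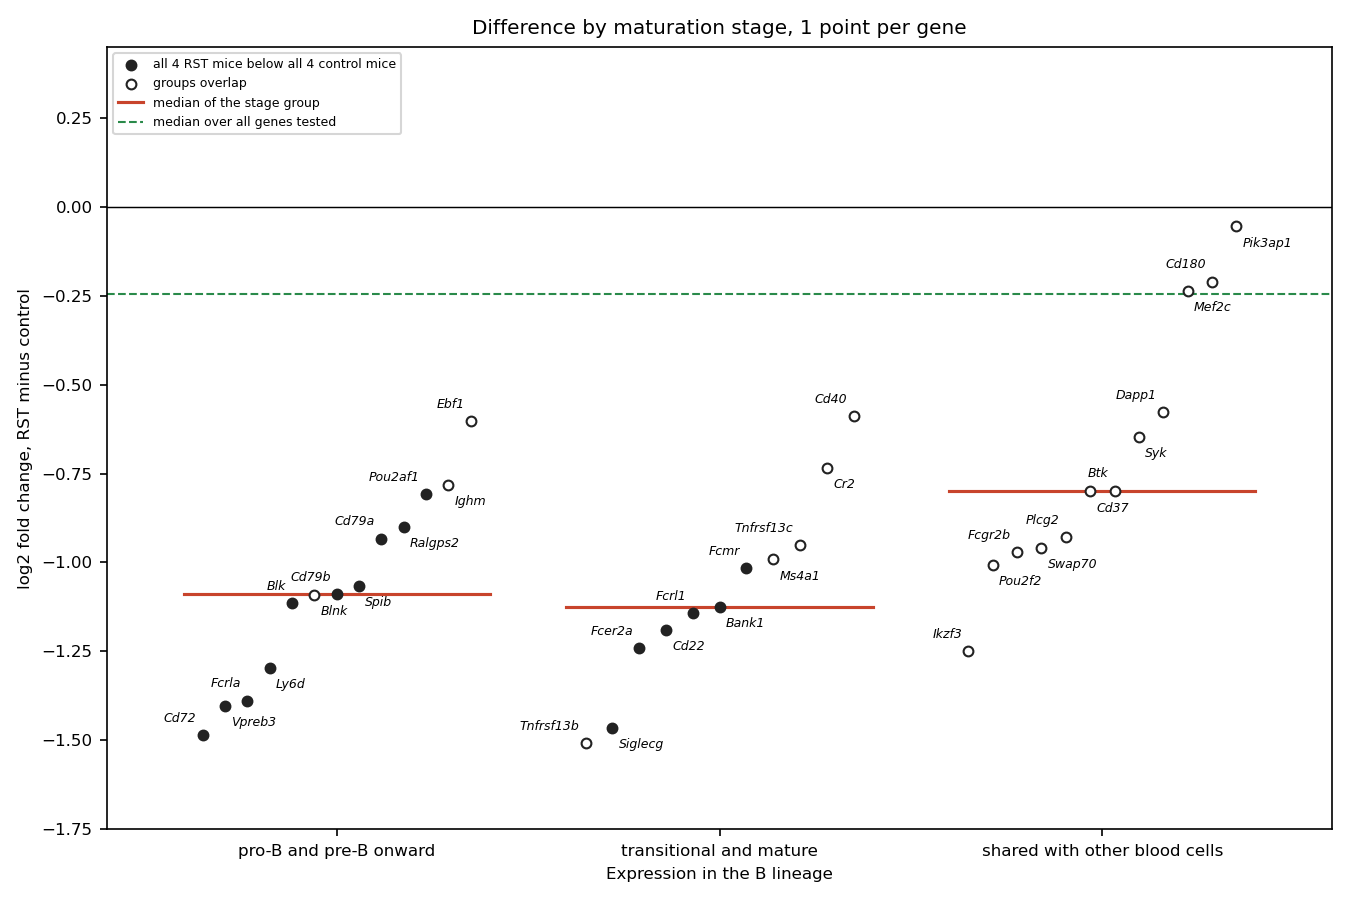
Difference of each gene (y axis, log2, RST minus control) by stage of expression in the B lineage (x axis, with points spread in order of their value). Filled points are genes whose groups do not overlap: 10 of 13, 6 of 11 and 0 of 12 from left to right. Over all genes tested, 6.57% had all RST mice below all control mice. Red bars are medians (−1.09, −1.13 and −0.80) and the dashed line the median of all genes tested.

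Over all probe sets of the members, 69 of 81 passed the filter, and 67 of the 69 were lower on average. At the unadjusted threshold 40 of the 69 were lower and 0 higher, and 10.4% of all probe sets tested were lower. Only 4 of the 69 passed through control mice alone (1 each of Ighm, Syk, Fcer2a and Pou2f2), and none of the 36 brightest probe sets did. The 12 below the filter had differences on both sides of 0, 6 of them lower. By brightness, the 10 members with a mean level of 8 and over had a median of −0.87, where all 1257 genes of that range had −0.06. The 20 members from 6 to 8 had a median of −1.05, against −0.45 for 2805 genes, and the 6 members under 6 had −0.66, against −0.19.

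**Figure D4:**
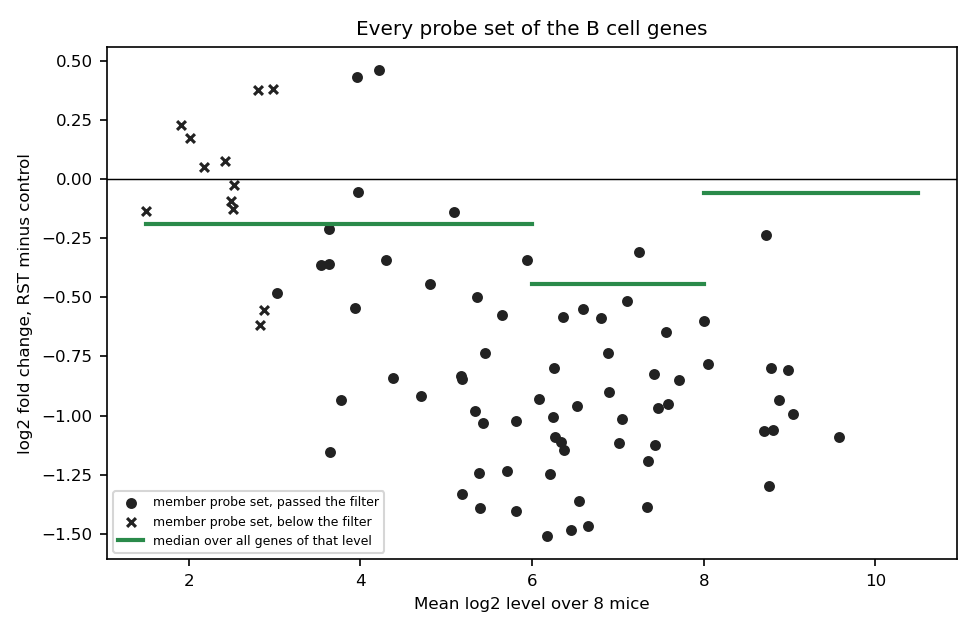
All 81 probe sets of the B cell genes by mean log2 level over 8 mice (x axis) and difference (y axis, log2, RST minus control). Dots passed the filter and crosses did not, and green bars are the median of all genes tested under 6, from 6 to 8, and at 8 and over (−0.19, −0.45 and −0.06). The crosses scatter around 0 and the brighter dots lie below it.

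The mice of a group were not alike. Control mice 1 and 2 were both above control mice 3 and 4 for 34 of the 36 genes, by a median of 0.85 between the means of the 2 pairs, against 0.27 over all genes tested. Ebf1 and Pik3ap1 were not among the 34, with control mouse 3 above control mouse 2 for Ebf1 and highest of all mice for Pik3ap1. RST mouse 4 was lowest of all 8 mice for 24 of the 36 genes, but it was also lowest for 46.8% of all genes tested. Its values split by brightness. It was above the mean of RST mice 1 to 3 for 8 of the 10 members with a level of 8 and over, among them Ms4a1 (by 0.72), Ebf1 (0.53), Ighm (0.44), Spib (0.38) and Cd79b (0.34). It was below that mean for all 26 dimmer members, as for Pou2f2 (−1.87) and Tnfrsf13b (−1.62). Over all genes tested, RST mouse 4 minus that mean had medians of −0.47 (under 6), −0.85 (6 to 8) and −0.23 (8 and over). For the members these medians were −1.12, −0.92 and 0.22.
With the median gene of each array set to 0, the mean over the 36 genes was 0.65, 0.61, 0.18 and −0.07 in control mice 1 to 4. In RST mice 1 to 4 it was −0.43, −0.18, −0.47 and −0.43. On this scale RST mouse 4 was like RST mice 1 and 3, and control mouse 4 was nearest to the RST mice. The hybridization controls, transcripts added to every array, had a mean log2 level of 11.93 and 11.90 in control mice 1 and 2 and of 12.35 in RST mouse 2. In the other 5 mice they lay between 12.60 and 12.74. With that mean as a covariate, 15 of the 36 genes were lower at the unadjusted threshold (5.27% of all genes tested), and the median was −0.64 against −0.14. Without these 3 mice the median was −0.72 against −0.21, with 10 genes past that threshold. The part of the hybridization controls in the difference beyond these values was not tested.

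Of 31 further genes of the receptor pathway, from coreceptors to the NF-kB and NFAT factors, 26 were measured. At the unadjusted threshold 8 were lower (30.8%, against 12.8% of all genes tested) and none higher. A lower mean was found for 24 (median −0.49), or 22 after quantile normalization (median −0.28). A difference between this list and the members was not tested. Nfatc1, a transcription factor activated by calcium, differed by −1.19 and Prkcb, the protein kinase C that leads to NF-kB, by −0.88. Most of these genes also act in T cells or myeloid cells. Of 12 further antibody chain genes listed, 4 were measured, 1 was lower at the unadjusted threshold, and the median was −0.47, or −0.14 after quantile normalization. Iglv1, a lambda light chain segment, was lower in every RST mouse than in any control mouse (−1.10). Igha differed by −0.61 and Jchain by −0.33, both with overlap, and Ighg3 had a higher mean (0.07).
Of 15 genes of B cell precursors, 10 were measured, 9 had a lower mean and 6 were lower at the unadjusted threshold (60%). The share over all genes tested, 12.8%, also belongs beside the 2 lists that follow. Myb (−1.18) and Igll1, the surrogate light chain (−1.02), had the smallest p, and Myb, Lef1 and Il7r also act in T cells. Of the germinal center and plasma cell genes, 2 of 11 measured (18.2%) were lower at that threshold, Cd27 (−0.93) and Sdc1 (−0.70), and Cd27 is also a T cell gene. Of the follicle homing and survival genes, 3 of 13 measured (23.1%) were lower, with S1pr1, the receptor that guides exit into blood, at −1.57 and Ccr7 at −0.92, both apart. In that list 4 genes had a higher mean, and for Cd24a (0.22) all RST mice lay above all control mice. The mean of Cd24a in RST mice was 13.2, near that of the reticulocyte gene Fech (13.3). Which cells gave the Cd24a signal was not tested.

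Genes of other blood cells were set beside the members. Of the 11766 genes tested, 1509 (12.8%) were lower and 329 higher at the unadjusted threshold. All 14 measured T cell genes had a lower mean, or 13 after quantile normalization (median −0.68, 8 lower at the unadjusted threshold), with the smallest p for Cd3d (−0.99) and Cd8b1 (−1.03). NK cell genes had a median of −0.69 (5 of 11 lower), with Gzma at −0.94 and Klrd1 at −0.92. Monocyte genes had a median of −0.45 (3 of 11 lower), which was −0.11 after quantile normalization, where all genes were at −0.05. Ms4a6c was at −1.18 and Ctss at −0.81, while F13a1 (0.42) and Fn1 (0.11) had a higher mean. Dendritic cell genes had a median of −0.53 (2 of 9 lower), or −0.35 after quantile normalization, with Bst2 at 56.2% and Irf8 at 50% of the control level. Neutrophil genes went both ways, with a lower mean for 6 and a higher mean for 5 of 11 (median −0.53). The 3 that were lower at the unadjusted threshold were the granule genes Ngp (−2.98), Camp (−2.37) and Ltf (−1.79), and Il1r2 had the highest difference (0.75). For these 3 granule genes the groups overlapped, with control mouse 2 (4.30, 3.88 and 4.29) within the range of the RST mice. Platelet genes had a median of 0.21 (none of 12 past the threshold), or 0.01 with 5 of 12 lower after scaling to the control probe sets, with Vwf at 0.39 and Mmrn1 at 0.33. All 10 measured reticulocyte genes had a higher mean, or 8 after scaling to the control probe sets (median 1.17, 7 higher at the unadjusted threshold), with Fbxo7 at 2.3 times and Trak2 at 2.78 times the control level. Fech (0.21), Alas2 (0.10) and Tfrc (0.01) did not pass that threshold. The list was chosen with earlier results of these data known, so its rise is no independent result.
With each array's median gene set to 0, the reticulocyte genes ran from −1.15 to −0.03 in control mice and from 0.24 to 0.69 in RST mice. They were lowest in control mice 1 and 2, the mice with the highest B cell genes. The T cell genes ran from 0.04 to 0.44 in control and from −0.50 to 0.01 in RST mice. The part of reticulocyte RNA in the lower share of B cell RNA was not tested.

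**Figure D5:**
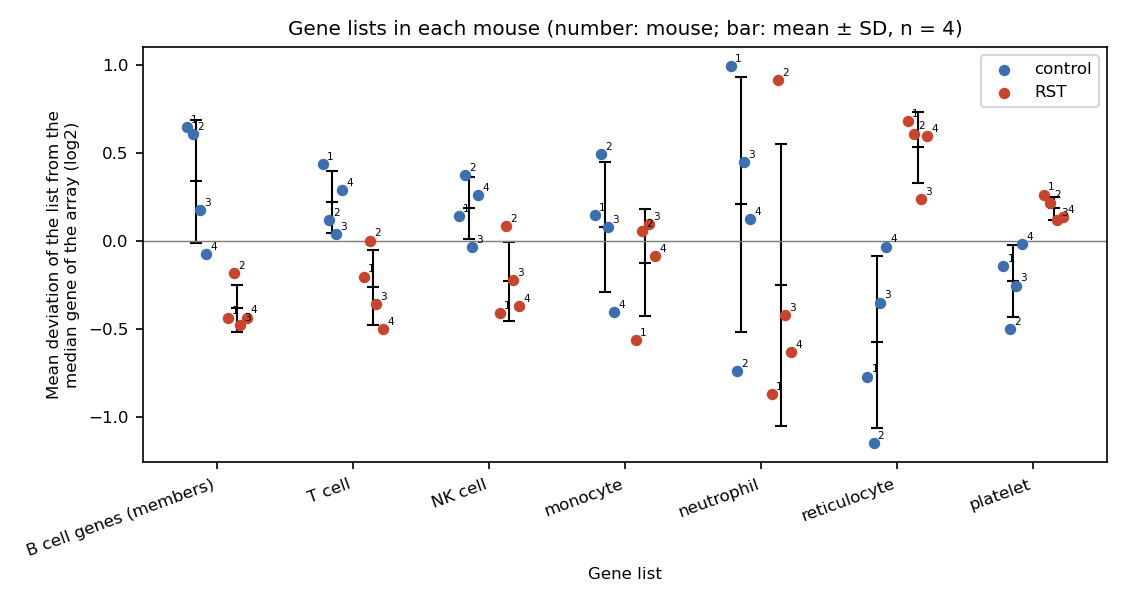
Mean deviation of 7 gene lists from each array's median gene (y axis, log2), 1 numbered point per mouse, with the mean and SD of 4 control (blue) and 4 RST (red) mice. The B cell genes ran from −0.07 to 0.65 in control and from −0.47 to −0.18 in RST mice, while the reticulocyte genes were higher in every RST mouse and the neutrophil genes overlapped widely.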

How the data were processed

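Whole-blood RNA of 4 RST and 4 control mice was measured on 1 array each. The authors deposited a log2 value for every probe set, already corrected for background, normalized and summarized. The submitters' notes list Affymetrix Expression Console 1.2.0.20 with RMA, and Partek, while the methods give GSRMA. RNA was amplified from 30 ng, and both amplification and summarization can alter differences of dim probe sets. Scan dates and presence calls were not used here.

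A probe set was tested if it exceeded the 50th percentile of its array in at least 2 of 4 mice of a group, which kept 25095 of 45101 after 64 control probe sets were left out. The groups were compared by limma 3.58.1 (lmFit and eBayes, R 4.3.3), with Benjamini-Hochberg adjustment over all 25095. Each gene is given by the brightest of its tested probe sets (11766 genes). Probe sets below the filter have values from a fit without it. The unadjusted threshold is a p under 0.05 with a fold above 1.5. The procedure was run on simulated data with noise set well below the observed spread and drawn separately for each probe set. That run checked the calculation only and says nothing of the power with these mice. Of all probe sets, 34958 had 1 gene in the platform annotation, 932 several and 9211 none listed, and symbols were updated by Entrez identifier.

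The members and the 12 other lists were chosen with earlier results of these data known. Values in every mouse are given for the receptor genes, the 3 genes of each other role with the smallest p and genes whose probe sets differ in sign. Of each other list the 2 genes with the smallest p are named. Mef2c in full, and Lef1, Il7r, Camp, Il1r2, Cd24a, F13a1, Fn1, Jchain, Ighg3, Fech, Alas2 and Tfrc, were chosen after their values were seen. That each array is a separate mouse is from the methods of the study, which give n = 4 per group, while the labels give replicate numbers. The number of arrays limits the precision. Alternatives changed the filter, the scaling, a floor at the 25th percentile, the prior, array weights, the test, a replicate block, a covariate, the probe sets of a gene and the mice used. Plots were made in Python 3.11.15 (matplotlib 3.10.9).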

Additional observations from a re-analysis of the deposited data

Results flagged for a closer look

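In 2 of 72 groups of 4 mice tested (36 genes in each group, 2.78%), 1 mouse stood apart from the other 3 by Dixon's criterion, the gap to the nearest mouse over the range of the group. Chance gives about 1 in 20 such groups. For Cd79a, RST mouse 2 was at 8.59 and the next RST mouse at 8.37, which is still below the lowest control mouse. For Ebf1, control mouse 4 was at 7.99 and the next control mouse at 8.38.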

How the results depend on the processing

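The count of 27 genes lower at the unadjusted threshold ran from 19 to 31 on leaving out 1 mouse at a time, with the lowest counts without control mouse 1 (19) and control mouse 2 (20). It was 15 with the hybridization control covariate, 4 without control mice 1 and 2, and 10 without these and RST mouse 2, an alternative chosen after the data were seen. Fewer mice were compared in the last pair of settings, and beyond that the cause was not tested. The count of genes with groups apart ran from 16 to 27, with 27 without control mouse 4. For the same probe sets this count cannot fall when a mouse is left out. The share over all genes tested, 6.57% with all 8 mice, can rise in the same way, so the rise alone is no result about the members. The number of members past the adjusted threshold was 0 under every alternative run. These include a trended and robust prior, which called 0.136% of all genes tested, and the unmoderated test of the methods. With these, 28 and 23 members passed the unadjusted threshold. Over all genes tested, 12.8% were lower at it in the main fit and 7.34% with quantile normalization, where 26 members were. The share over all genes is not set beside every count here, so a count alone is no result about the members. The median of −0.98 ran from −1.15 to −0.84 on leaving out 1 mouse, was −0.79 with quantile normalization (all genes −0.05), and was −1.19 when arrays were scaled to their control probe sets (all genes −0.45). The difference of Pik3ap1, Cd180 or Mef2c took the other sign under some alternatives, where neither value passed the unadjusted threshold, and no other member did. With the replicate block, 30 genes passed the unadjusted threshold. Whether the replicate numbers pair the mice is not known. The deviations of same-numbered mice correlated at −0.245, 0.422, 0.0463 and 0.2, and values so mixed cannot exclude a shared batch. The number of arrays, and for dim probe sets the signal over background, limit all values.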
